A study of Homo sapiens with 4 samples.

Results

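The genes described here handle, bind and respond to retinoids, the vitamin A family, in H1, a widely used human embryonic stem cell line. They are 9 protein-coding genes taken by symbol from a deposited table of 17472 genes, and all 9 were found: LRAT and DHRS3 (retinol storage and retinal reduction), CRABP1 and CRABP2 (retinoic acid binding), RARA, RARB and RARG (retinoic acid receptors), and RXRA and RXRB (retinoid X receptors). They were selected on the measured MEK5DD against WT difference of these same libraries, so their own values are given as a description, with standard errors and without p-values. There were 4 poly(A) RNA-seq libraries, 2 from cells left unmodified (WT) and 2 from cells made to overexpress MEK5DD. MEK5DD is MAP2K5, a kinase upstream of ERK5, with serines 311 and 315 changed to aspartate. The lentiviral vector was EZ-Lv195.1 and puromycin removed cells without it, per the labels' protocols. Both groups grew in E8 medium, whose components named in the labels (among them insulin, FGF2 and TGF-beta) include no retinoid. The labels name 1 overexpressing line, no promoter for the transgene and no line given virus and puromycin alone, so MEK5DD cannot be told apart from delivery, selection or the line.

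Retinol taken up by a cell is either esterified for storage by LRAT (lecithin retinol acyltransferase) or oxidised through retinal to retinoic acid, and DHRS3 reduces retinal back to retinol. Retinoic acid is held in the cytosol by CRABP proteins, CRABP2 being known for delivering it to the nucleus, and CYP26 enzymes degrade it. In the nucleus it binds RAR proteins, which act as heterodimers with RXR proteins on direct repeats of a short recognition hexamer. Added retinoic acid is widely used to drive pluripotent stem cells out of self-renewal, often towards neural fates.

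Recovered reads ranged from 14908486 to 17628945 per library. Values below are normalised read counts (the authors' counts after division by 1 factor per library) unless a scale is named. MAP2K5 itself had values of 344 and 315 in WT and 3382 and 3558 in MEK5DD (10.5-fold, log2 fold change 3.40, SE 0.08, adjusted p = 5.91e-11 from limma). The labelled cell type was checked on 9 pluripotency markers, all listed, whose summed value was 160893 and 158889 in WT and 161001 and 153393 in MEK5DD, with NANOG called higher and SOX2 lower. Other marker lists held genes called in either direction, where 14.2% of all 15721 tested genes were called: of 4 tested neuroectoderm markers 3 were called lower (SIX6, SIX3 and SOX1) and NES higher, of 4 tested fibroblast markers 3 were called higher (TAGLN, COL1A2 and COL1A1), and of 3 tested amnion and trophoblast markers GATA3 was called higher and GABRP and KRT7 lower. The summed value of the neuroectoderm list, most of it NES, was 7900 and 8084 in WT and 8621 and 8093 in MEK5DD, and that of the fibroblast list was 7417 and 7335 in WT and 9170 and 8822 in MEK5DD. The amnion and trophoblast list summed to 381 and 416 in WT and 235 and 245 in MEK5DD. The primitive streak and mesoderm list, most of it KDR, summed to 2904 and 2812 in WT and 5600 and 5857 in MEK5DD. Of its 4 tested genes KDR and MIXL1 were called higher (log2 fold changes 1.02 and 0.98). EOMES and TBX6 were not called (1.19 and -0.28). The neural crest list stayed between 362 and 443 in the 4 libraries and the definitive endoderm list between 22.7 and 25.9. That steady endoderm sum hid opposite differences in its 2 listed genes. GATA4 was called higher (log2 fold change 1.64, SE 0.50, adjusted p = 0.0456 from limma). Its values were 3.523 and 5.208 in WT and 17.264 and 13.954 in MEK5DD. It therefore passed the filter for testing (at least 10 in at least 2 libraries) only through its MEK5DD values. The GATA4 call held in edgeR and in limma without the mean-variance trend, and DESeq2 did not make it. CXCR4 was lower without overlap of the groups but was not called (log2 fold change -1.23, adjusted p = 0.0895 from limma). Every listed gene had reads in all 4 libraries, so a gene without reads in at least 1 library is absent from the table. Absence therefore does not mean that a gene was silent in both groups. The defining markers LHX2, SOX10, TBXT, SOX17, FOXA2, CDX2, LUM and DCN are not listed in the table and were not analysed here. The part of such markers in the retinoid results was not tested, and in bulk RNA fewer cells of a type cannot be told apart from less RNA per cell.

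Sequences just before annotated starts of 3 of the genes are shown. LRAT and DHRS3 were chosen as the members that differed most between the groups among those tested. RARB was chosen because the region before an annotated start carries the repeat on which RAR and RXR heterodimers are known to act. Each run is the 250 bases before an annotated start, 5′ to 3′ on the gene's strand, from RefSeq (GRCh38.p14), and capitals mark the recognition hexamer (AGGTCA, or its close variants spelled AGTTCA, or spelled GGTTCA, or spelled GGGTCA) on either strand (its complement where on the other strand). The windows lie at chr4:154743750-154743999 (LRAT), chr1:12616790-12617039 and chr1:12596614-12596863 (DHRS3, minus strand) and chr3:25428013-25428262 (RARB). Each lies within the span that GENCODE v29 gives its gene, so none is the region upstream of the whole gene.
LRAT: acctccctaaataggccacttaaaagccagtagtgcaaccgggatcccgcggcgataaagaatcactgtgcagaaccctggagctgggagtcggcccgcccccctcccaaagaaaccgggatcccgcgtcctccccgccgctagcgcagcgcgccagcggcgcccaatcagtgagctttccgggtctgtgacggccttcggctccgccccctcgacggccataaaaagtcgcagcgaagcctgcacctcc
DHRS3 a: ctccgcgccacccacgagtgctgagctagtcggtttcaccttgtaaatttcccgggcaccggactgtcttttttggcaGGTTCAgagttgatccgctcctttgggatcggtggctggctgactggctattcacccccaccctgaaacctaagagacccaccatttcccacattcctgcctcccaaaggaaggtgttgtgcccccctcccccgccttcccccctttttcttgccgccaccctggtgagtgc
DHRS3 b: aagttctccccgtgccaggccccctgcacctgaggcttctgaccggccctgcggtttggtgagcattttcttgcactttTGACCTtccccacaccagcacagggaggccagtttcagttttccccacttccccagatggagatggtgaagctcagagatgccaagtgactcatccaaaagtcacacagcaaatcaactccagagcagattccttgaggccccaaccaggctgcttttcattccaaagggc
RARB: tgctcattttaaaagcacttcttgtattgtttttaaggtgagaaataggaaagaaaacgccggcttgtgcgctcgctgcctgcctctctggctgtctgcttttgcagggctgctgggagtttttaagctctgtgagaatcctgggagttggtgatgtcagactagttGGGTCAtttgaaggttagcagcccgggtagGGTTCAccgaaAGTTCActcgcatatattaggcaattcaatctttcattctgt
The LRAT window held no such hexamer. Each of these DHRS3 windows held 1. A further annotated DHRS3 start, whose window (chr1:12618211-12618460) lies before the whole gene, held 0 in it. The RARB window shown held 3, of which 2 form a direct repeat with a spacer of 5 bases (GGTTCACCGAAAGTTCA, named DR5), beginning 53 bases before that start. Windows of the other annotated RARB starts held 0 or 1 hexamer each and no DR5.

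Across RefSeq, 35116 windows of 300 bases (250 before to 50 after a start) were searched the same way, of which 18 belong to the 9 genes. At least 1 hexamer was found in 8 of the 18 windows, from CRABP2, DHRS3, RARA, RARB and RXRA, against 38.6% of all windows. The DR5 arrangement was found in 1 of the 18, that of RARB, against 0.0883% of all windows. The RARB repeat was known beforehand, and its hexamers, GGTTCA and AGTTCA, are among the variants searched for. Nothing about the 9 genes as a set is therefore read from that count. Direct repeats with spacers of 1 base (DR1, 0.131% of all windows) or 2 bases (DR2, 0.0399%) were found in none of the 18. A match describes the letters in the window, and neither a match nor its absence says where a receptor binds.

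LRAT was lower and DHRS3 higher in MEK5DD cells, the binding proteins overlapped between the groups, and the tested receptor genes had log2 fold changes from -0.15 to 0.21, and RARB was counted in 3 to 7 reads per library. Of the 9 genes 8 passed the filter on low values (at least 10 in at least 2 libraries) and RARB did not. Of these 8, 2 were called in the limma fit over all genes (adjusted p of 0.05, Benjamini and Hochberg), 1 higher (DHRS3) and 1 lower (LRAT). In the same fit 14.2% of 15721 genes were called, 7.69% higher and 6.47% lower, and nothing is read from the members' count because they were chosen with this contrast known. The median log2 fold change was 0.04 over the 8 tested members and -0.00 over all tested genes. The MEK5DD values did not overlap the WT values in 7 of the 9 genes, 4 higher and 3 lower, an arrangement shown by 54.3% of all listed genes.

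**Figure D1:**
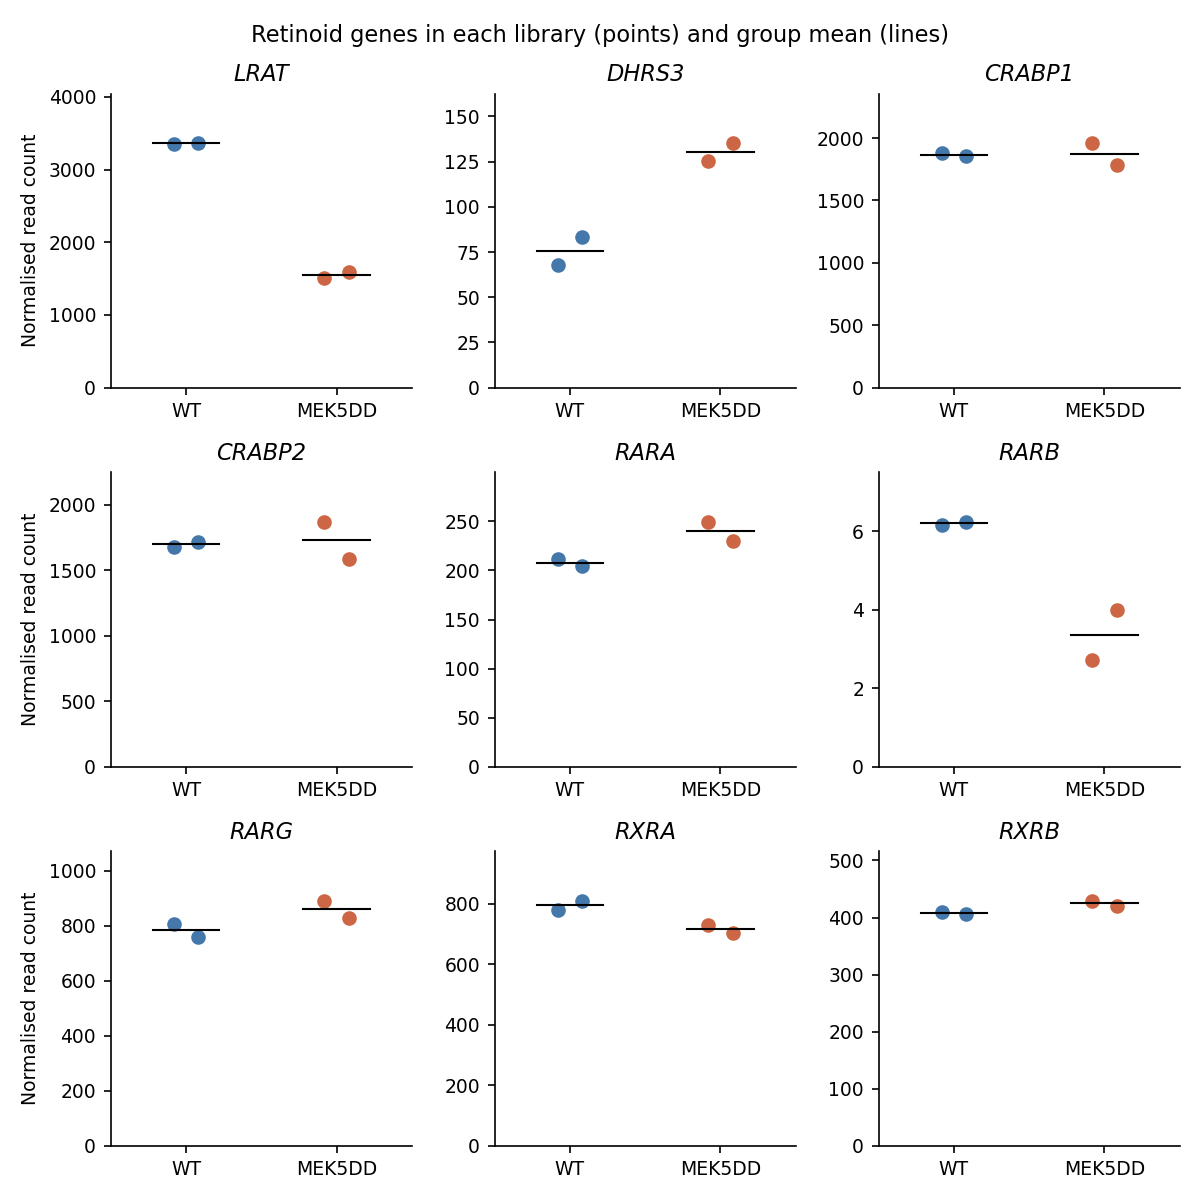
Normalised read count (y axis, from 0) of each of the 9 genes in the WT and MEK5DD libraries, with 1 point per library and a line at the mean of 2. LRAT lies at 3354 and 3371 in WT against 1507 and 1594 in MEK5DD, DHRS3 runs the other way, and the points of CRABP1 and CRABP2 overlap between the groups.

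LRAT makes retinyl esters, the storage form of retinol, by moving an acyl chain from a phospholipid onto retinol. It lies on chromosome 4, 154626945 to 154753118, plus strand (GENCODE v29, GRCh38). The 2 WT libraries had 3354 and 3371, and the 2 MEK5DD libraries 1507 and 1594. Both MEK5DD libraries thus lay far below both WT libraries. The WT pair differed by 0.01 and the MEK5DD pair by 0.08 on the log2 scale, against a difference between the groups of -1.12 (log2, SE 0.07, n = 2 each), or 2.17-fold lower. Among the 15721 tested genes 195, LRAT included, had a log2 fold change at or below this value, a rank that is a description because LRAT was selected on this difference. With each library left out in turn the log2 fold change of LRAT ran from -1.16 to -1.08.

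**Figure D2:**
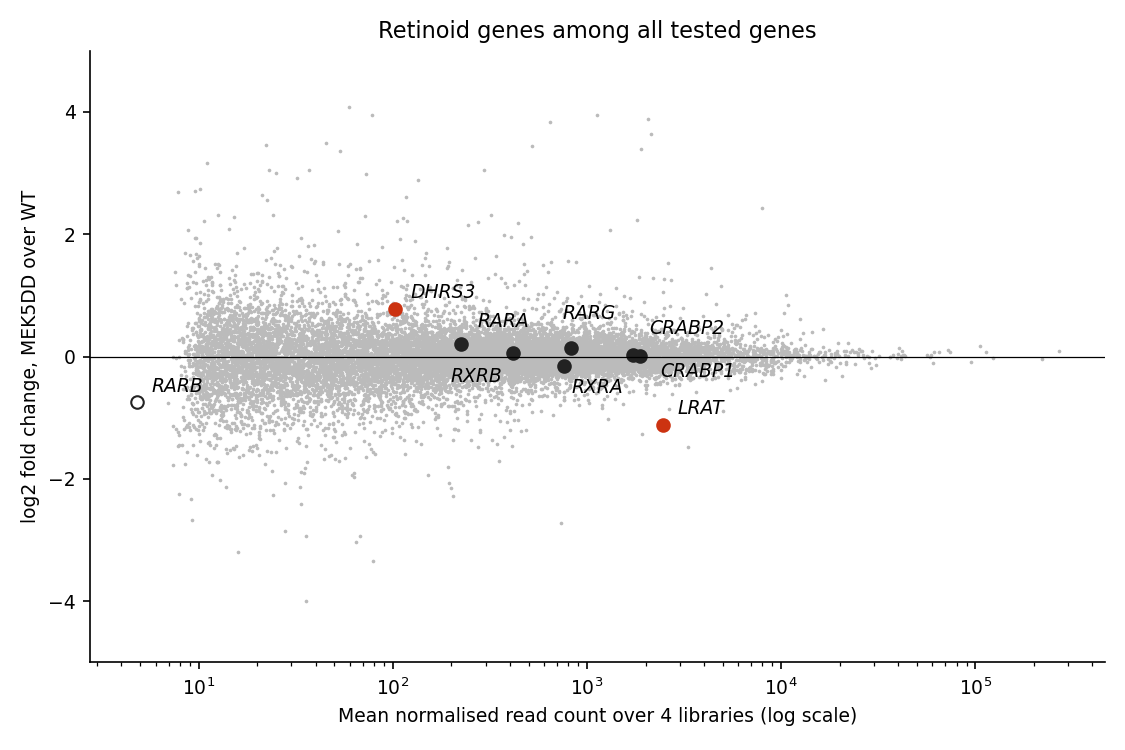
Log2 fold change of MEK5DD over WT (y axis) against the mean normalised read count over the 4 libraries (x axis, log scale), with tested genes in grey, the called members LRAT and DHRS3 in red, other members in black and RARB, below the filter, as an open circle. LRAT, at -1.12, lies below nearly all genes of similar mean, and CRABP1, CRABP2, RARA, RARG, RXRA and RXRB lie within 0.21 of 0.

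DHRS3 encodes a retinal reductase that returns retinal to retinol and so works against retinoic acid formation. It lies on chromosome 1, 12567910 to 12617731, minus strand. Its value was 67.8 and 83.3 in WT and 125 and 136 in MEK5DD, from 77, 80, 138 and 136 recovered reads. Both MEK5DD libraries were above both WT libraries, and the WT pair was the less even, differing by 0.29 on the log2 scale against 0.11 for the MEK5DD pair. The difference between the groups was 0.79 (log2, SE 0.17, n = 2 each), or 1.72-fold higher. It was 0.64 without WT replicate 1, where the limma call was lost, and from 0.73 to 0.93 without each of the others. The call was also lost without the mean-variance trend. The mean ± SD of DHRS3 (n = 2 per group) was 75.6 ± 11.0 for WT and 130 ± 7.18 for MEK5DD, and that of LRAT 3363 ± 12.3 and 1551 ± 61.0.

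CRABP1 and CRABP2 are small cytosolic proteins that bind retinoic acid, and their transcripts were the most abundant of the 9 per length. CRABP1 (chromosome 15, 78340324 to 78348230) had values of 1877 and 1857 in WT and 1965 and 1781 in MEK5DD. The MEK5DD pair enclosed the WT pair, with a log2 fold change of 0.00 (SE 0.07). CRABP2 (chromosome 1, 156699606 to 156705816) had values of 1681 and 1713 in WT and 1872 and 1588 in MEK5DD. Here too the MEK5DD pair enclosed the WT pair, with a log2 fold change of 0.02 (SE 0.08). The sign for each gene turned with the MEK5DD library left out: without replicate 1 the values were -0.07 for CRABP1 and -0.10 for CRABP2, and without replicate 2 they were 0.07 and 0.14. It also turned under quantile normalisation, to -0.02 for CRABP1 and -0.00 for CRABP2, and for CRABP1 with upper-quartile factors, to -0.01. Both genes were higher in MEK5DD replicate 1 than in replicate 2. The antisense gene AC011270.2 shares 469 exonic bases with CRABP1, 47.2% of CRABP1's exons, and was listed at values from 4.98 to 6.17. No source used here gives the strand setting of the counting, so reads of the 2 genes cannot be told apart.

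The RAR genes encode the receptors that bind retinoic acid itself, and RARG was the main one by transcript level. RARG (chromosome 12, 53210567 to 53232980) had values of 809 and 760 in WT and 892 and 830 in MEK5DD. The MEK5DD values lay above the WT values by a margin smaller than the spread within either pair, with a log2 fold change of 0.13 (SE 0.08). RARA (chromosome 17, 40309192 to 40357643) had values of 211 and 204 in WT and 250 and 230 in MEK5DD. These did not overlap, and the log2 fold change was 0.21 (SE 0.12). RARA shares 556 exonic bases, 11.8% of its exons, with the antisense gene RARA-AS1, which was listed at values from 4.17 to 10.9.

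RARB, whose DR5 repeat before an annotated start is printed above and which is a known target of retinoic acid signalling, was close to the limit of detection. It lies on chromosome 3, 25174332 to 25597932, and was counted in 7 and 6 reads in WT and 3 and 4 reads in MEK5DD. Its normalised values were 6.17 and 6.25 in WT and 2.73 and 3.99 in MEK5DD, which do not overlap. The summed reads were 13 in WT, with a 95% exact Poisson interval of 6.92 to 22.2, and 7 in MEK5DD, with an interval of 2.81 to 14.4, both covering counting error only. These intervals overlap, which is not a test of a difference, and RARB was below the filter for testing. No difference in RARB is read from so few reads. RARB shares 28 exonic bases with TOP2B, on the other strand, whose values ran from 6090 to 6799.

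Per kilobase, the RAR family was made up of RARG, RARA and RARB in that order in each of the 4 libraries. With the merged exons of GENCODE v29 as the length, RARG held 77.3% and 76.8% of the RAR sum in WT and 76.5% and 76.5% in MEK5DD. RARA held 21.9% and 22.3% in WT and 23.2% and 23.0% in MEK5DD. RARB held 0.817% and 0.875% in WT and 0.324% and 0.509% in MEK5DD. With the longest coding transcript as the length, the share of RARG ran from 78.4% to 79.3%.

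RXRA and RXRB encode the partners that RARs and several other nuclear receptors need for binding DNA. RXRA (chromosome 9, 134317098 to 134440585) had values of 781 and 811 in WT and 730 and 704 in MEK5DD. Both MEK5DD libraries lay below both WT libraries, with a log2 fold change of -0.15 (SE 0.08). RXRB (chromosome 6, 33193588 to 33200688) had values of 410 and 406 in WT and 430 and 421 in MEK5DD. Its groups did not overlap either, in the other direction, with a log2 fold change of 0.06 (SE 0.09) that was smaller than its standard error. RXRB shares 244 exonic bases, 6.22% of its exons, with SLC39A7 on the other strand, whose values ran from 2159 to 2454. Of the 50-base words in the coding transcripts of each of the 9 genes, 0 occurred in transcripts of another of the 9.

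**Figure D3:**
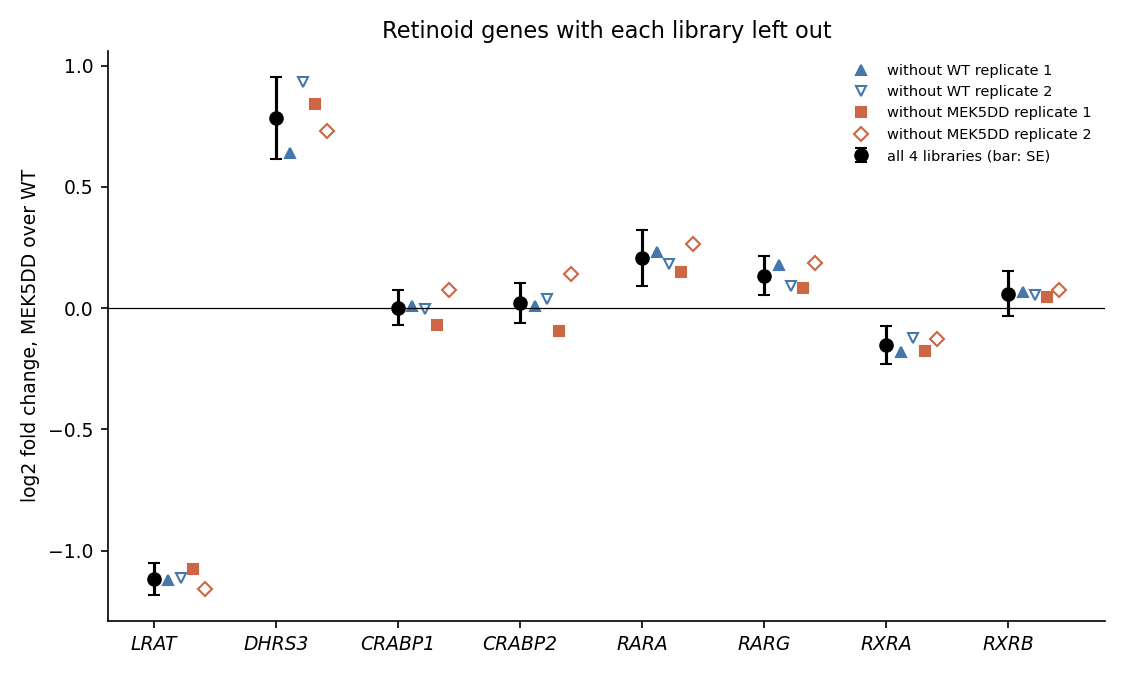
Log2 fold change of MEK5DD over WT (y axis) for the 8 tested genes, with all 4 libraries (black, bar of 1 standard error) and with each library left out (coloured marks). LRAT stays between -1.16 and -1.08 and DHRS3 between 0.64 and 0.93, and the marks of CRABP1 and CRABP2 fall on both sides of 0.

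Levels per kilobase of merged exon in WT ran in the order CRABP1 (1880 ± 14.2), CRABP2 (1543 ± 21.1), LRAT (445 ± 1.63), RARG (153 ± 6.65), RXRB (104 ± 0.606), RXRA (71.8 ± 1.92), RARA (43.9 ± 1.08), DHRS3 (24.9 ± 3.61) and RARB (1.68 ± 0.016; SD, n = 2 each). Each gene's 2 libraries lay apart from those of the next in this order. The small SD of RARB comes from 7 and 6 reads and does not measure the counting error on so few. In MEK5DD the order was the same, with LRAT at 205 ± 8.06, close above RARG at 168 ± 8.56, and DHRS3 at 43.0 ± 2.36, close below RARA at 50.7 ± 2.94. The place of the RXR genes depended on the length used. By the longest coding transcript RXRA stood at 431 in WT, above RARG (265) and RXRB (140), because GENCODE v29 gives RXRA 11083 bases of merged exon but a longest coding transcript of 1846 bases. By that length RXRA (388) also passed LRAT (315) in MEK5DD, and RARA and DHRS3 overlapped there.

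Other genes of retinoid handling and response were taken from 9 lists arranged by role, 86 genes in all. Of these 36 are not listed in the table and were not analysed here, 3 fell below the filter and 47 were tested. The limma fit called 4 of the 47, ALDH1A3 higher and NR6A1, EP300 and RARRES2 lower, against 14.2% of all genes tested. Their median log2 fold change was -0.08, beside -0.00 over all tested genes. None of the 4 calls held without WT replicate 1, without WT replicate 2 or without the mean-variance trend. An unadjusted p under 0.05 was reached by 16 of the 47 in the main limma fit and by 8 without the trend. The share of all tested genes under that unadjusted level is not given here. The unadjusted counts of these lists therefore have no background beside them, and nothing is read from them.

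Uptake and transport genes were called in 0 of 5 tested cases by limma, edgeR and DESeq2, with 1 (LRP2) at an unadjusted p under 0.05 in limma, 1 in edgeR and 0 in DESeq2. STRA6, the membrane receptor for retinol bound to its plasma carrier, had values of 144 and 150 in WT and 145 and 156 in MEK5DD (log2 fold change 0.04, SE 0.13, adjusted p = 0.898 from limma). The groups overlapped. In the list of other enzymes that form or cleave retinyl esters, limma called 0 of 4. LPL and LIPE had an unadjusted p under 0.05 in limma. All 4 had a negative fold change, as did 50.4% of all tested genes. For DGAT1 it was near 0 (log2 fold change -0.02, SE 0.12) and the groups overlapped. LPL, a lipase also able to hydrolyse retinyl esters, had values of 33.5 and 29.2 in WT and 12.7 and 16.9 in MEK5DD (log2 fold change -1.04, SE 0.32, adjusted p = 0.0516 from limma) and was called by edgeR, while DESeq2 called 0 of the 4, with 1 at an unadjusted p under 0.05.

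Among enzymes that interconvert retinol and retinal 0 of 6 tested genes were called by limma, edgeR or DESeq2, with 1 at an unadjusted p under 0.05 in each, in limma ADH5 (log2 fold change 0.21). RDH10, the main retinol dehydrogenase of the embryo, had values of 261 and 246 in WT and 250 and 229 in MEK5DD (log2 fold change -0.08, SE 0.11). ALDH1A3, which makes retinoic acid from retinal, rose from 185 and 193 in WT to 269 and 254 in MEK5DD (log2 fold change 0.47, SE 0.12, adjusted p = 0.0185 from limma). Both MEK5DD libraries were above both WT libraries. With DESeq2 its adjusted p was 0.0903. ALDH1A1, of the same family, had 47.6 and 39.6 in WT and 29.1 and 34.9 in MEK5DD (log2 fold change -0.43, SE 0.25, adjusted p = 0.294 from limma), and ALDH1A2, not listed, was not analysed here.

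CYP26A1 degrades retinoic acid and is itself a well known retinoic acid target. Its values were 26.4 and 35.4 in WT and 20.0 and 9.97 in MEK5DD, which do not overlap but are uneven within MEK5DD. The log2 fold change was -1.06 (SE 0.38, adjusted p = 0.0862 from limma), and it rested on which MEK5DD library was kept, at -1.53 without replicate 1 and -0.59 without replicate 2. Without WT replicate 2 the log2 fold change was -0.85. CYP26B1 and CYP26C1 are not listed and were not analysed here. FABP5, a lipid carrier that can take retinoic acid to PPARD instead of the RARs, rose from 1028 and 1056 to 1424 and 1274 (log2 fold change 0.37, SE 0.08, adjusted p = 0.00819 from limma). Leaving out either WT library ended that call, with a log2 fold change of 0.35 without replicate 1 and 0.39 without replicate 2.

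**Figure D4:**
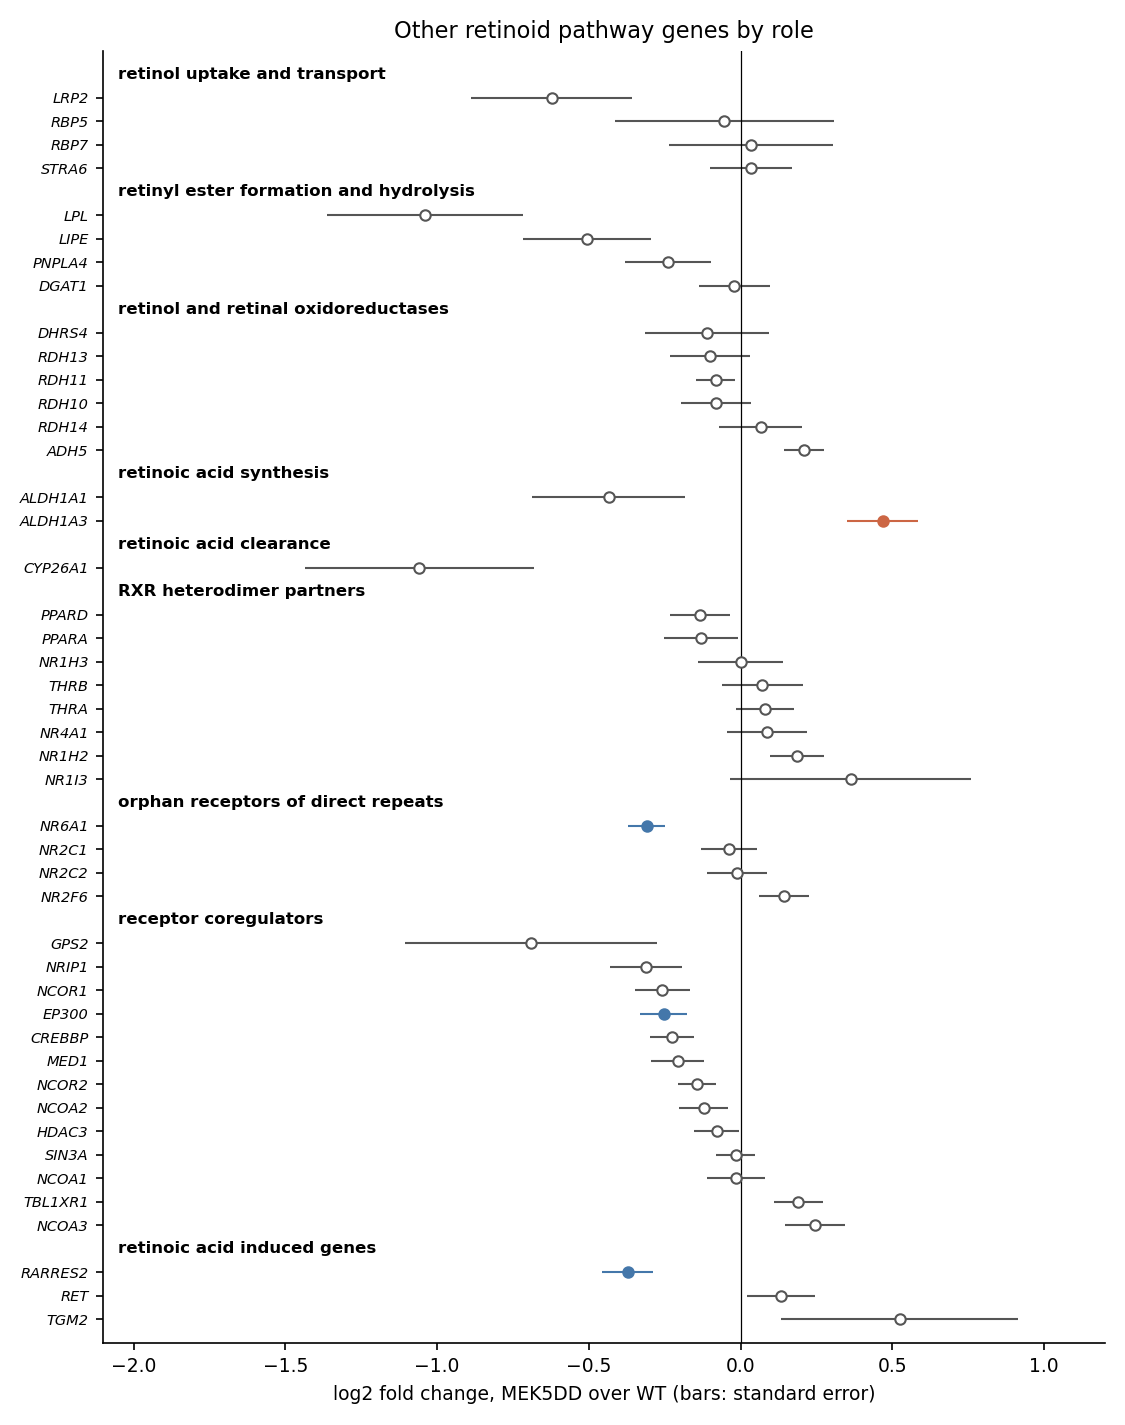
Log2 fold change of MEK5DD over WT (x axis, bars of 1 standard error) for tested genes of the 9 retinoid pathway lists, not all of which are drawn. Filled points are the genes called by limma, ALDH1A3 higher and NR6A1, EP300 and RARRES2 lower, and open points were not called.

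Other nuclear receptors that pair with RXR were called in 0 of 8 tested cases by limma, edgeR and DESeq2, and none had an unadjusted p under 0.05 in any of the 3. RXRG, not listed, was not analysed here. Of 4 tested orphan receptors that bind direct repeats, NR6A1, known as germ cell nuclear factor, fell from 4304 and 4205 to 3483 and 3384 (log2 fold change -0.31, SE 0.06, adjusted p = 0.00507 from limma). Coregulators were all 13 listed, 11 with a negative fold change against 50.4% of all tested genes, and 1 was called. Their summed value was 21390 and 21510 in WT and 18838 and 21054 in MEK5DD replicates 1 and 2. The lower MEK5DD sum thus came mostly from replicate 1. An unadjusted p under 0.05 was reached by 8 of the 13 in limma, 6 with a negative fold change and TBL1XR1 and NCOA3 with a positive one. It was reached by 8 in edgeR, by 4 in DESeq2 and by 0 in limma without the mean-variance trend. These counts have no background beside them, and nothing is read from them. The called coregulator was the acetyltransferase gene EP300, which fell from 3217 and 3193 to 2487 and 2904 (log2 fold change -0.25, SE 0.08, adjusted p = 0.0450 from limma). Leaving out MEK5DD replicate 1 gave a log2 fold change of -0.14 and leaving out replicate 2 gave -0.37, and the adjusted p from DESeq2 was 0.0815. The corepressor gene NCOR1 had 3025 and 2827 in WT and 2203 and 2715 in MEK5DD (log2 fold change -0.26, SE 0.09, adjusted p = 0.078 from limma), and was chosen after its values were seen. EP300 and NCOR1 were both lower in MEK5DD replicate 1 than in replicate 2.

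Of 17 genes known to be induced by retinoic acid in various cells only 4 were listed in the table, and the other 13, among them HOXB1, MEIS1 and STRA8, were not analysed here. RARRES2, which encodes the adipokine chemerin, fell from 1919 and 1905 to 1615 and 1351 (log2 fold change -0.37, SE 0.08, adjusted p = 0.0119 from limma). RET and TGM2 were not called, with log2 fold changes of 0.13 and 0.52.

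The nearest listed gene beyond the 3′ end of LRAT was RBM46, an RNA-binding protein gene of germ cells. RBM46 lies on chromosome 4, 154781213 to 154828813, on the same strand as LRAT and 28.1 kb beyond its end. It had values of 94.2 and 80.2 in WT and 911 and 994 in MEK5DD (10.8-fold, log2 fold change 3.44, SE 0.12, adjusted p = 2.66e-09 from limma). Neighbouring genes thus differed in opposite directions in the same libraries, LRAT 2.17-fold lower and RBM46 10.8-fold higher. The nearest listed gene on the other side, PLRG1, a splicing factor gene 76.5 kb away, had 1046 and 1073 in WT and 981 and 947 in MEK5DD (log2 fold change -0.14, SE 0.07, adjusted p = 0.262 from limma). Beside DHRS3, VPS13D was not called (-0.11) and PDPN, 966 kb away, was called higher (0.40). Around the other members NES beside CRABP2 was called higher (0.35) and ZNF740 beside RARG lower (-0.52), and the other 12 neighbours were not called.

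**Figure D5:**
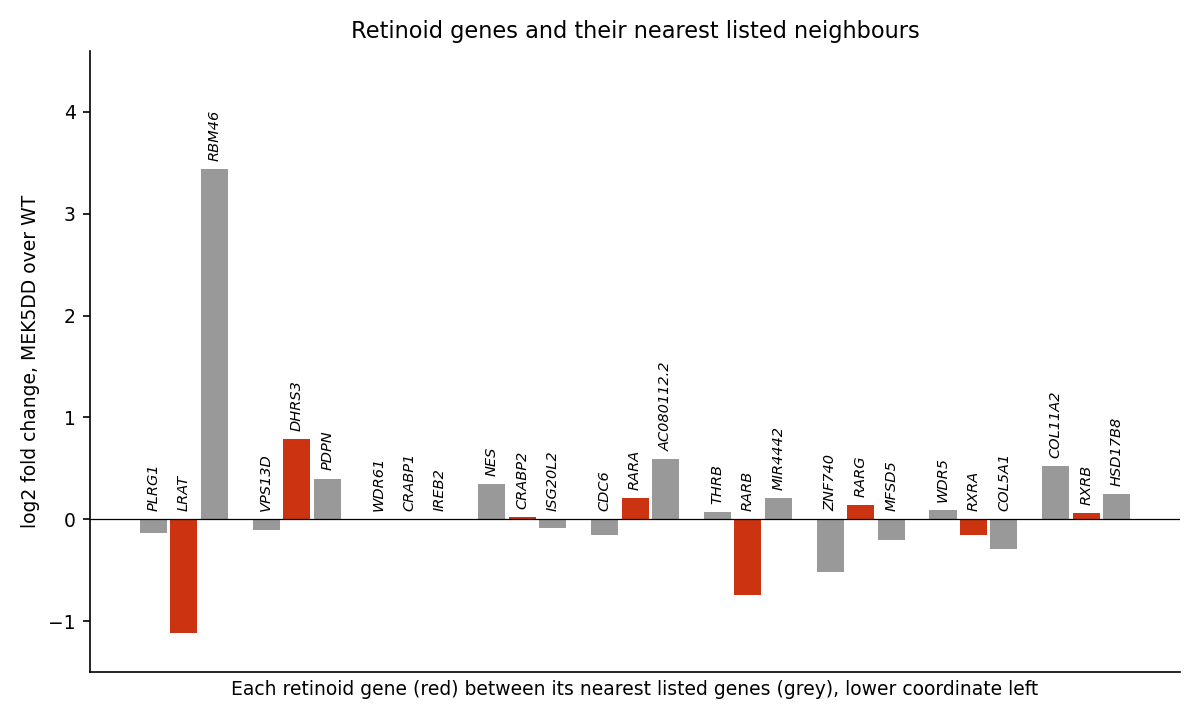
Log2 fold change of MEK5DD over WT (y axis) as bars for each of the 9 genes (red) between its nearest listed genes on the chromosome (grey, lower coordinate at left). RBM46, beside LRAT, stands at 3.44 where LRAT is at -1.12.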

How the data were processed

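Poly(A) RNA of 2 WT and 2 MEK5DD libraries was measured, grouped by their labels. The authors deposited 4 columns of signal: read counts per gene, divided by 1 factor per library. Each value was a whole multiple of its column's smallest value (within 0.001 for 100% of genes), from which reads were recovered. (For MEK5DD replicate 2 the smallest value is 0.997, too near 1 for an automated test of this.) Per the submitters' processing notes, which give no role or order, the tools include STAR, Trimmomatic 0.36, DESeq2 1.26.0 and featureCounts 1.5.3, and the build is hg38. No source used here gives the annotation or strand setting.

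Log2(value + 1) was tested with limma 3.58.1 (R 4.3.3), its variance prior following mean expression, over 15721 genes with at least 10 in at least 2 libraries. Folds are on that scale, which understates changes of low genes. Two-sided p-values were adjusted (Benjamini and Hochberg) over those genes at 0.05 and measure the spread between libraries, which may be technical. The procedure was tested on simulated data. Tried besides were pseudocounts of 0.5 and 5, no filter or a mean of at least 50, 3 other scalings, no trend, a replicate block, leaving out each library, and edgeR 4.0.16 and DESeq2 1.42.0 on recovered reads. Members and lists were chosen with earlier results of these data known. Named genes were the members, up to 4 called genes per list, 11 preset pathway genes (some items are not reported here), the nearest listed neighbours and the 3 genes closest in profile to the member with the largest change. Coordinates are from GENCODE v29 (GRCh38).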

Additional observations from a re-analysis of the deposited data

How the results depend on the processing

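The log2 fold changes of LRAT and DHRS3 kept their direction under all 15 alternatives; CRABP1 and CRABP2, near 0, did not. The 2 member calls became 1 (LRAT) without the mean-variance trend, and 1 to 2 with each library left out. The 4 pathway calls became 7 with upper-quartile factors, 0 without the trend, 2 with DESeq2 (NR6A1 and RARRES2), and 0 to 15 with each library left out. Over all genes the count of 2226 became 439 without the trend, 1358 with DESeq2 and 1160 to 4629 with each library left out. The 15 marker calls became 7 without the trend. With a replicate block the pathway calls became 13, the member calls stayed at 2 and the count over all genes became 3349. Replicate numbers share only a label: the differences within the WT and MEK5DD pairs had a correlation of 0.05 across 15721 genes, which are not independent replicates. Leaving out 1 library leaves 1 in its group, so those fits hold no spread within that group. The causes of these shifts were not tested. Depth limits RARB, counted in 3 to 7 reads per library.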

Other observations

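The 3 tested genes whose profile over the 4 libraries was closest to that of LRAT, by Euclidean distance between log2 values centred on each gene's mean, were VWC2 (distance 0.06), which encodes a secreted BMP antagonist, GPM6A (0.07), which encodes a neuronal membrane glycoprotein, and CNTFR (0.07), which encodes the receptor for ciliary neurotrophic factor. VWC2 had values of 233 and 233 in WT and 99.0 and 107 in MEK5DD. GPM6A had 171 and 176 in WT and 77.2 and 77.7 in MEK5DD. CNTFR had 324 and 327 in WT and 150 and 163 in MEK5DD. With 4 libraries in 2 groups this likeness says little beyond a similar fold change and a narrow spread.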
